A study of Equus caballus with 93 samples.

Results

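A set of 150 abundant genes was chosen for nearly the same mean level in synovial fluid cells of horses before and after joint surgery. Its composition is described here across 93 RNA sequencing libraries, of which 70 were used for the choice. The members were chosen by their measured values from 15838 genes. In libraries with an SD over genes of at least 2 on the log2 scale, the mean log2 CPM (log2 of reads relative to a scaled library size) was computed for each week with both arms pooled. A gene qualified when week 2 and the mean of weeks 4 to 10 each lay within 0.5 log2 units of week 0 and its SD over the week 0 libraries was below 0.6. Of the genes that qualified, the 150 with the highest week 0 mean were kept, and 4 further identifiers had been set aside, 2 of which met all 3 limits. These values are therefore given as a description of how the members were chosen, and no test is attached to them.

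All 16 horses were 2 to 5 years old (7 mares and 9 geldings), and in every one of them an osteochondral fragment was made surgically in a middle carpal joint as a model of osteoarthritis. The operated joint received 2 mL of phosphate buffered saline (Control, 8 horses) or 2 mL of 2.5% injectable polyacrylamide hydrogel (iPAAG, 8 horses) at day 14, and all horses exercised from week 2 to week 10. Week 0 fluid was taken before surgery, so surgery, time and exercise cannot be told apart in a change over weeks, and the labels do not place the week 2 sampling before or after the injection. The hydrogel is a synthetic, water-binding filler that is injected into joints for osteoarthritis. The Control joints carried the same fragment, so no group here is an unoperated joint after week 0, and the sham-operated joints were not analysed here.

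Cells of synovial fluid are a mixture that includes macrophages, lymphocytes and shed lining cells, and neutrophils enter in numbers when a joint is inflamed. In most tissues, transcripts that are both abundant and steady include those for ribosomal proteins, translation factors and the cytoskeleton, and genes of this kind are used as references against which other transcripts are measured. The deposited table names genes by Ensembl horse identifiers, the files do not pair these with gene names, and 0 of the 15838 identifiers matched the table of gene names at hand. Whether the members belong to those classes, and how the markers of each cell type behaved, was therefore not analysed here. In bulk samples, fewer cells of a type and less RNA per cell cannot be told apart.

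The libraries were of 2 kinds. In 70 of them the SD of log2 CPM over all genes lay between 2.19 and 4.21, and in 23 it lay between 1.20 and 1.90; the latter are called narrow-spread libraries below and were not used to choose the members. Reads in genes ranged from 6076026 to 39916655 in the 70 libraries and from 1737741 to 12597216 in the 23. The narrow-spread libraries came from 12 horses, 6 libraries from Control and 17 from iPAAG joints, so the arms differ in what remains: Control kept 8, 7, 7, 6, 7 and 6 libraries at weeks 0, 2, 4, 6, 8 and 10, and iPAAG kept 7, 7, 3, 4, 6 and 2. Each tested count below rests on the 70 libraries and is followed by its value with all 93. One library among the 70, Control horse 11 at week 8, stood apart as the shallowest, and the 4 identifiers set aside took 46.0% of its reads against a median of 5.61% over the 70.

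At the level of the last member, 258 genes were as abundant at week 0 or more so, and the 150 members made up 58.1% of them. The members included 4 of the 10 genes with the highest week 0 mean, 24 of the highest 50 and 50 of the highest 100. Of the 104 equally abundant genes that were neither members nor set aside, 73 moved too far by week 2 (53 upward and 20 downward). In the mean of weeks 4 to 10, 57 moved too far (42 upward and 15 downward), and 47 varied too much at week 0. All 3 limits were exceeded by 19 genes, while 24 failed only the week 2 limit, 9 only the later limit and 17 only the week 0 spread. Among all genes, 38.9% met the 3 limits, rising from 0.31% of genes with a week 0 mean below 0 to 66.3% of those from 6 to 8, with 61.9% from 8 upward.

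**Figure D1:**
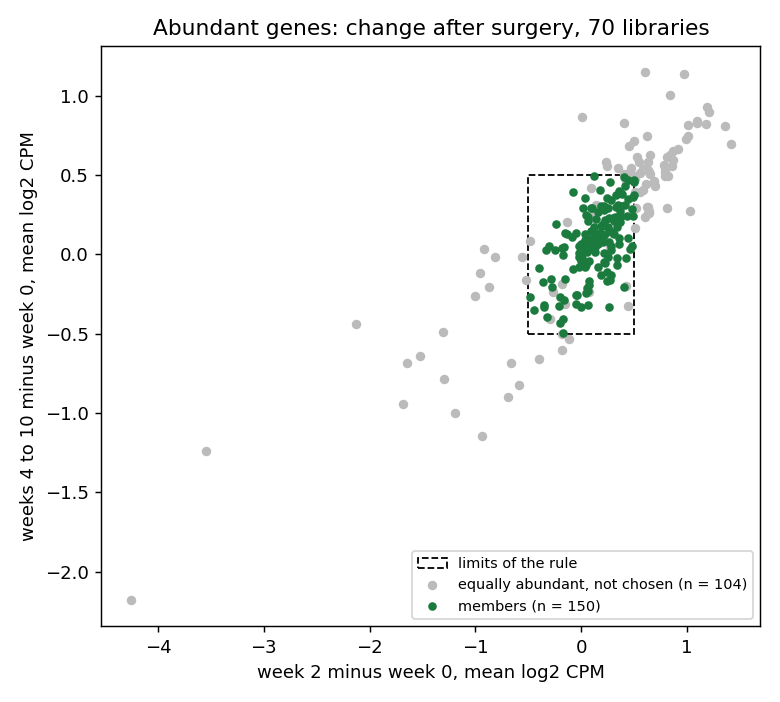
Change of mean log2 CPM from week 0 to week 2 (horizontal) and from week 0 to weeks 4 to 10 (vertical) for the 150 members (green) and 104 equally abundant genes that were not chosen (grey), over 70 libraries, with the limits of 0.5 as a dashed box. The members fill the box, more of them above 0 than below on both axes, and grey points inside the box are genes that failed the limit on week 0 spread.

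The limits cut through a continuous range. The member with the widest shift at week 2 stood at 0.498 log2 units and the nearest gene outside at 0.505. For the mean of weeks 4 to 10, the values nearest the limit were -0.494 inside and -0.503 outside on the downward side, and 0.493 and 0.508 on the upward side. The highest week 0 SD among the members was 0.573, and the lowest among abundant genes left out for it was 0.604. The last member had a week 0 mean of 8.92 log2 CPM, as had the next gene in order. CPM is not divided by transcript length, so this order is one of reads and not of transcript number.

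Within these limits the members' mean log2 CPM leaned upward after surgery, in the same values that the rule limited. Their week 0 means ran from 8.92 to 13.25 log2 CPM with a median of 9.50. At week 2, 113 members lay above week 0 and 37 below, with a median change of 0.14, and over weeks 4 to 10, 100 lay above and 50 below, with a median of 0.08. The 108 other genes of the same abundance had median changes of 0.50 and 0.40, and the medians of all genes were 0.01 and -0.05. Log2 CPM is relative to a scaled library size, and the part of that scaling in the lean was not tested. In the 70 libraries the members' mean share of reads was lower at week 2 than at week 0. A member was measured by a median of 15282 reads per library, at which counting alone gives an SD of about 0.012 log2 units, far below the spread of any member.

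Single weeks were less even than their mean. At weeks 4, 6, 8 and 10, 147, 145, 138 and 129 of the 150 members lay within 0.5 log2 units of week 0, beside 65.6%, 66.9%, 62.3% and 56.9% of all genes. The median member changed by 0.16, 0.07, 0.19 and -0.05 at these weeks. At week 10, 14 members lay more than 0.5 below week 0 and 7 more than 0.5 above. The lowest weekly mean fell at week 10 in 70 members and at week 0 in 51, and the highest fell at week 8 in 56. The rule used the average of weeks 4 to 10, so it left these opposite movements inside the average.

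A steady mean did not mean a steady gene in each horse. Compared with its own week 0 library, 1 of the 150 members (0.667%) stayed within 0.5 log2 units in all 14 horses with a usable pair at week 2, beside 1.75% of all genes. At week 4, 9 members (6.0%) did so in all 10 horses, beside 5.00% of all genes, and at week 6, 4 members (2.67%) did so in all 9, beside 3.39%. Week 8 gave 8 members (5.33%) over 13 horses, beside 1.77% of all genes. At week 10, 23 members (15.3%) stayed within the limit in all 7 horses, beside 6.70% of all genes. Single differences between a horse's library and its own week 0 reached -2.11 and 2.05 log2 units at week 2. These counts fall as more horses are compared, so the weeks cannot be ranked by them. Within each of the 14 horses at week 2, a larger share of members than of all genes stayed within the limit. It ran from 61 of 150 members in Control horse 9, beside 34.0% of all genes, to 138 in iPAAG horse 17, beside 58.3%. This held in later usable pairs as well, with exceptions. Those were Control horse 2 at week 4, iPAAG horse 3 at week 6 and Control horse 10 at week 8. The rule limited the week means, so this was in part fixed by the choice.

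The spread over the 55 libraries of weeks 2 to 10 was not itself a limit of the rule. It was smaller in the members than in the 108 other abundant genes, most of which had failed a limit. The median SD was 0.32 log2 units in the members (range 0.14 to 0.75), 0.56 in the 108 other abundant genes and 0.60 over all genes. Abundant genes in general lay near the members. Over the 698 genes with a week 0 mean of 8 or more, members included, the median SD was 0.37, and from 6 to 8 it was 0.34. It was below 0.6 in 144 of 150 members (96.0%), in 53.7% of the other abundant genes and in 49.8% of all genes. It was below 0.3 in 55 members (36.7%), 11.1% of the other abundant genes and 17.5% of all genes. The week means enter both this SD and the rule, so a low value was in part fixed by the choice. Within single weeks, from week 0 to week 10 in order, the median SD of the members was 0.35, 0.26, 0.30, 0.35, 0.31 and 0.21. The medians over all genes ran from 0.40 to 0.59, and the members' lay below them in each week. At week 0 the rule's own limit fixed this. The 10 members with the highest week 0 means had a median SD over weeks 2 to 10 of 0.42, against 0.30 in the next 40.

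**Figure D2:**
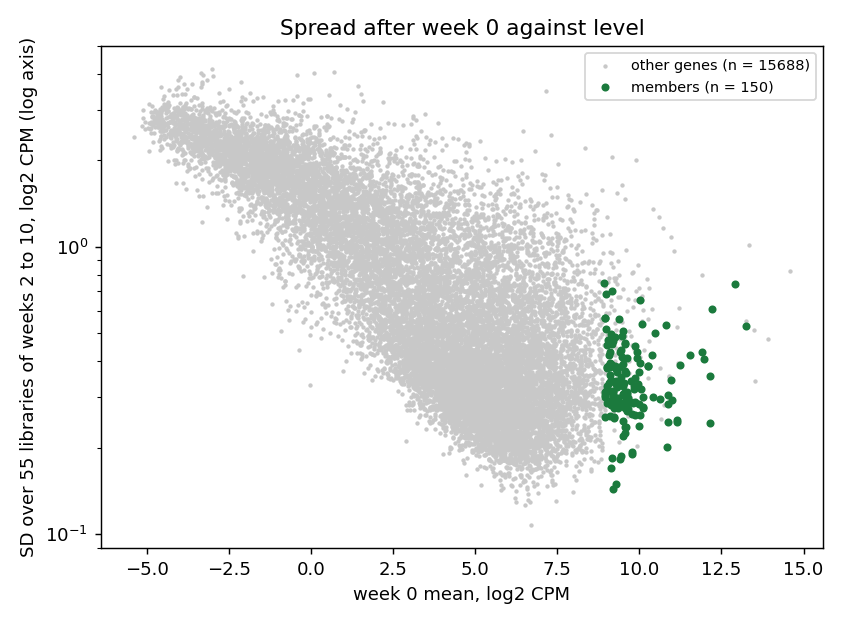
SD of log2 CPM over the 55 libraries of weeks 2 to 10 (vertical, log axis) against the week 0 mean (horizontal) for each gene, with members in green. The members lie at the right, from 0.14 to 0.75, and genes of low abundance spread far more widely.

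The steadiest members by that SD were ENSECAG00000024349 (0.14) and ENSECAG00000024149 (0.15). ENSECAG00000024349 had a mean of 9.20 ± 0.21 log2 CPM at week 0 (SD, n = 15; lowest 8.70, median 9.28, highest 9.43). Week 2 gave 9.33 ± 0.12 (n = 14) and week 4 gave 9.26 ± 0.16 (n = 10). The means of weeks 6, 8 and 10 were 9.19 ± 0.16 (n = 10), 9.25 ± 0.15 (n = 13) and 9.30 ± 0.08 (n = 8). The ranges of the 6 weeks all overlapped, and the lowest value of all was at week 0. ENSECAG00000024149 stood at 9.30 ± 0.15 log2 CPM at week 0 (n = 15; 8.99 to 9.56) and at 9.42 ± 0.14 at week 10 (n = 8; 9.27 to 9.67). Its weekly means in between ran from 9.38 to 9.48, with the ranges again overlapping. In the 23 narrow-spread libraries the same genes were lower, at 7.12 ± 1.11 and 7.32 ± 1.04 log2 CPM.

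At the other end were ENSECAG00000004807 (SD 0.75), which was also the last member by abundance, and ENSECAG00000055539 (SD 0.74), which was the member with the next to highest week 0 mean. For ENSECAG00000055539, 1 library set the spread. Its weekly means lay between 12.90 and 13.27 log2 CPM except at week 8, when it averaged 13.78 ± 1.25 (n = 13; lowest 12.82, median 13.26, highest 17.54). The highest value was that of Control horse 11, with 469726 reads in a library of 6076026. In the other 6 Control libraries of that week it ran from 12.82 to 14.45.

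The most abundant member, ENSECAG00000045744, had 13.25 ± 0.29 log2 CPM at week 0 (n = 15; 12.74 to 13.75) and 13.69 ± 0.14 at week 2 (n = 14; 13.47 to 13.96). From week 4 its libraries scattered, from 12.71 to 14.99 over weeks 4 to 8. In Control joints it stood at 14.10 ± 0.40 at week 4 (n = 7; lowest 13.45, median 14.08, highest 14.50) and at 13.18 ± 0.29 at week 10 (n = 6; 12.72, 13.19 and 13.47), so that 1 of the 7 week 4 libraries lay within the week 10 range. In iPAAG joints the 3 values at week 4 were 12.78, 12.90 and 13.44 and the 2 at week 10 were 13.37 and 13.46. The 2 arms thus stood in opposite order at these weeks, and the difference between them is tested below.

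The treatment question was whether the step between week 2 and the average of weeks 4 to 10 differed between iPAAG and Control joints, which the rule, with its arms pooled, did not use. limma called 0 of 150 members at a Benjamini-Hochberg adjusted p below 0.05, and 0 of all 15838 genes (0.0%). At an unadjusted p below 0.05 there were 7 members and 1682 genes. The difference of the median member was -0.07 log2 units (range -0.48 to 0.85) with a median SE of 0.19, and the median over all genes was -0.09. A difference of the size of that SE was not detectable in a single gene, and the iPAAG arm held 3 libraries at week 4 and 2 at week 10. For ENSECAG00000024349 the difference was 0.00 ± 0.11 (SE), for ENSECAG00000024149 -0.05 ± 0.10, for ENSECAG00000045744 -0.28 ± 0.29, for ENSECAG00000055539 -0.39 ± 0.40 and for ENSECAG00000004807 0.25 ± 0.31.

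With all 93 libraries, limma again called 0 members and 0 genes (0.0%), but every member was lower in iPAAG joints by this contrast, with a median of -1.29 log2 units and 104 members and 3765 genes at an unadjusted p below 0.05. The iPAAG arm held 15 of the 20 narrow-spread libraries of weeks 4 to 10, and the part of spread in the shift was not tested. When spread entered as a covariate over the 93 libraries, a fit chosen after seeing the data, 88 members and 2358 of 15838 genes were called. All 88 members had the lower change in iPAAG joints, and the direction over all genes is not given here. This covariate is a straight line. The members' median level lay between 9.36 and 9.96 over spreads of 2.19 to 4.21 and between 5.32 and 8.95 below 2. A straight line does not follow such levels, so the part of spread in the 88 calls was not tested. The same covariate in the 70 libraries called 0 members.

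For the change from week 0 to week 2, limma called 0 members and 0 genes (0.0%) as different between arms, with 4 members and 632 genes at an unadjusted p below 0.05. The median member differed by -0.06 log2 units, with a median SE of 0.22. Over all 93 libraries limma also called 0 members and 0 genes (0.0%), with 0 members and 206 genes at an unadjusted p below 0.05. Applied to each arm alone, the rule gave 2 lists of 150 genes that shared 115, or 76.7% of each, and 114 of those were members. Both lists took the most abundant genes that passed, and in the pooled arms 61.9% of genes from 8 log2 CPM upward met the limits. The members came from the same libraries, so this overlap was in part fixed by the choice and is no test of the arms.

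**Figure D3:**
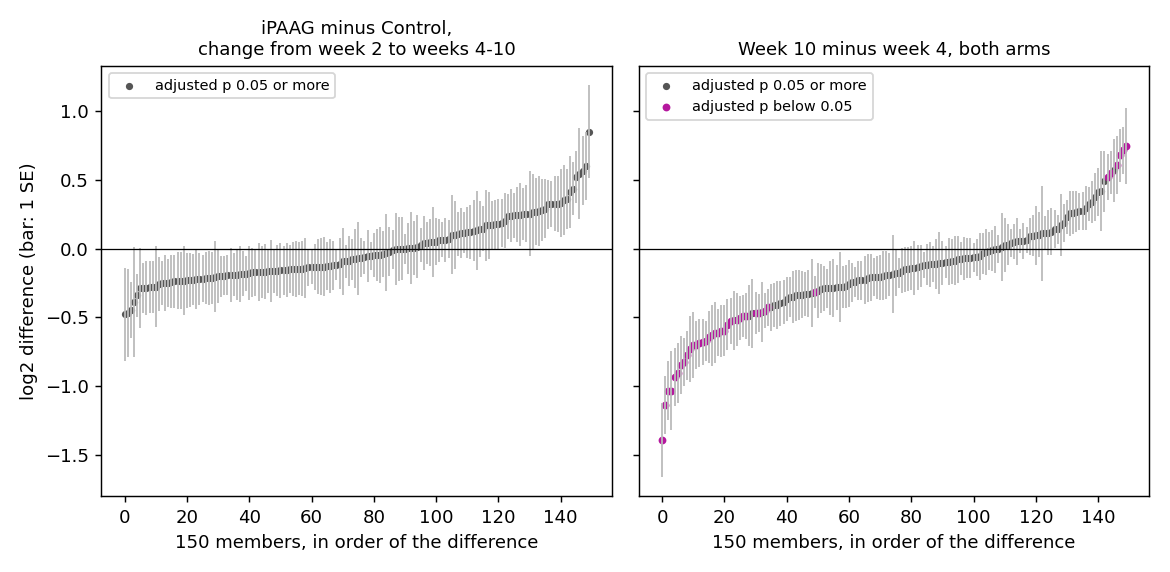
Fitted log2 differences of the 150 members, each panel sorted by its own values, with bars of 1 SE: iPAAG minus Control in the change from week 2 to weeks 4 to 10 (left) and week 10 minus week 4 in both arms (right), in 70 libraries. No point is coloured on the left, and on the right 38 members passed an adjusted p of 0.05, 32 of them below 0.

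In limma's F test of differences among weeks 4, 6, 8 and 10, 44 of 150 members (29.3%) were called beside 23.3% of all genes. Week 10 differed from week 4 in 38 members (25.3%) beside 20.9% of all genes and 35.2% of the other abundant genes. Of these, 32 members (21.3%) fell and 6 rose (4.0%), beside 10.5% of all genes that fell and 10.4% that rose. The median member changed by -0.18 log2 units and the median gene by 0.03. Quantile normalisation gave 8 members that rose and 24 that fell, and centring each library on its median gave 4 and 32.

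These counts rested on few libraries. For the fits that left out 1 horse, counts of all genes are not given here, so a lower count is not read as particular to the members. Without horse 5, which supplied 1 of the 2 iPAAG libraries of week 10, 15 members were called in the F test and 4 between weeks 4 and 10; without horse 12 the latter count was 24, and without horse 17 the former was 27. With all 93 libraries, 19 members (12.7%) were called in the F test beside 16.2% of all genes, and 2 between weeks 4 and 10 beside 9.4%. Both were lower at week 10, beside 4.03% of all genes that were lower and 5.36% that were higher. Over the 93 libraries the direction turned under 2 settings chosen after seeing the data. With spread as a covariate 27 members rose and 2 fell, beside 2140 genes that rose and 1599 that fell. With quantile normalisation 12 members rose and 6 fell, beside 755 and 844 genes.

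Among the members called between weeks 4 and 10, the largest fitted falls averaged over the arms were those of ENSECAG00000004807 and ENSECAG00000024397. The largest rises among them were those of ENSECAG00000038893 and ENSECAG00000022546. ENSECAG00000004807 was named for its spread over the same libraries. The other 3 were chosen after their values were seen, and a call was a condition of the choice. ENSECAG00000004807 averaged 9.28 ± 0.64 log2 CPM at week 4 (n = 10; lowest 8.49, median 9.22, highest 10.26), 8.79 ± 0.52 at week 6 (n = 10), 8.34 ± 0.61 at week 8 (n = 13) and 7.98 ± 0.35 at week 10 (n = 8; 7.25, 8.08 and 8.34). Every week 4 library lay above every week 10 library. The fitted difference was -1.39 ± 0.27 (SE) with a limma adjusted p of 0.00055, at -1.33 in Control and -1.45 in iPAAG joints, the latter with an adjusted p of 0.141. By week 10 it lay below its own week 0 mean of 8.92, and weeks 4 and 10 lay on opposite sides of week 0 within a mean that met the limit.

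ENSECAG00000024397 went from 9.14 ± 0.36 log2 CPM at week 4 (n = 10; 8.45 to 9.70) through 8.80 and 8.62 to 8.12 ± 0.23 at week 10 (n = 8; 7.85 to 8.40). Here too the groups did not overlap, and the difference of -1.14 ± 0.21 had a limma adjusted p of 0.000441. ENSECAG00000022546 rose from 9.51 ± 0.32 (n = 10; 8.96 to 10.15) to 10.11 ± 0.36 (n = 8; 9.79 to 10.72), with overlapping ranges, by 0.71 ± 0.17 (limma adjusted p = 0.00359). Without horse 5 that adjusted p was 0.157. ENSECAG00000038893 went from 12.12 ± 0.85 (n = 10, 10.37 to 13.18) to 12.91 ± 0.40 (n = 8, 12.52 to 13.60), with overlapping ranges. The difference was 0.74 ± 0.28 with a limma adjusted p of 0.0463, which was above the threshold in 8 of the fits that left out 1 horse. With all 93 libraries limma gave it an adjusted p of 0.341. In limma's F test among weeks 4, 6, 8 and 10 of the 70 libraries it was 0.138.

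Within the Control arm alone, 47 members (31.3%) were called between weeks 4 and 10. The shares were 21.2% of all genes and 31.5% of the other abundant genes. Of the members, 41 were lower (27.3%) and 6 higher (4.0%), beside 12.7% of all genes that were lower and 8.55% that were higher. This direction depended on the scaling: quantile normalisation gave 17 members higher and 15 lower. Counts of all genes under that scaling are not given here, so the turn is not read as particular to the members. The call for ENSECAG00000045744 was -0.91 ± 0.26 with a limma adjusted p of 0.00919. Without horses 2, 9 or 15, 23, 29 and 29 members were called, with no count of all genes given here for those fits. With all 93 libraries 4 members were called, beside 12.4% of all genes. In the iPAAG arm limma called 0 members beside 0.101% of all genes, with 23 members and 2360 genes at an unadjusted p below 0.05, over 3 and 2 libraries. With all 93 libraries limma called 0 members and 0 genes there (0.0%), with 3 members and 558 genes at an unadjusted p below 0.05.

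A call in 1 arm and not in the other does not show that the arms differed. The difference between arms in the change from week 4 to week 10 was called by limma in 0 members and 0 genes (0.0%), with 4 members and 628 genes at an unadjusted p below 0.05. Over all 93 libraries the counts were 0 members and 0 genes (0.0%), and 5 members and 1189 genes at an unadjusted p below 0.05. In the 70 libraries it was 1.25 ± 0.51 for ENSECAG00000045744, with a limma adjusted p of 1.00.

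Over the 55 libraries of weeks 2 to 10, limma's F test over horses within arms called 6 members (4.0%), beside 10.5% of all genes and 19.4% of the 108 other abundant genes. At an unadjusted p below 0.05 there were 42 members and 4002 genes. The count of members ran from 3 to 11 when 1 horse was left out and was 12 after quantile normalisation, when 1941 genes were called. The limit on week 0 spread had removed genes that differed between horses at week 0, so a low share was in part fixed by the choice. Over all 77 libraries of weeks 2 to 10, narrow-spread ones included, limma called 0 members beside 4.22% of all genes, with 1 member and 2143 genes at an unadjusted p below 0.05.

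The members did not vary as a block. Over the 55 libraries, deviations from the group means had a mean pairwise correlation of 0.14 over 11175 pairs of members, from -0.72 to 0.97, and 60.7% of the pairs were positive. The mean was 0.13 among the other abundant genes. The first principal component held 27.7% of the members' variance and the next 17.7%. These correlations share the libraries and their scaling, and are given as a description.

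The members' share of a library's reads stayed near 15%, in part fixed by the choice of steady genes in these same libraries. It averaged 14.97 ± 0.99% (SD, n = 70; 13.2% to 18.8%), with 15.1 ± 1.01% at week 0 (n = 15) and 14.3 ± 0.73% at week 10 (n = 8). The other abundant genes, with the 4 identifiers set aside among them, held 17.8 ± 1.36% at week 0 and 21.1 ± 0.70% at week 10. Most of these genes had failed a limit of the rule, so their contrast with the members also follows in part from the choice. In a single library of the 70, a median of 122.5 of the 150 members lay within 0.5 log2 units of the week 0 mean (72 to 147). Of all genes, 38.4% to 73.6% did so in a library. The 70 include the week 0 libraries that set this mean, so the count of members was in part fixed by the choice.

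In narrow-spread libraries the members lost this steadiness. They held 7.89 ± 3.60% of the reads (n = 23; 1.88% to 12.7%), and their median level was 5.32 to 8.95 log2 CPM, below every one of the 70 libraries, which ran from 9.36 to 9.96. The lowest were iPAAG horse 7 at week 4 (5.32) and iPAAG horse 3 at week 10 (5.49), and the highest was Control horse 9 at week 10 (8.95). All 150 members were lower on average than at week 0, by a median of -2.03 log2 units (range -2.72 to -1.30), as were all 108 other abundant genes, with a median of -1.75. In the 20 narrow-spread libraries whose horse had a usable week 0 library, the median member differed from it by -0.49 to -4.34, with a median of -1.96.

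**Figure D4:**
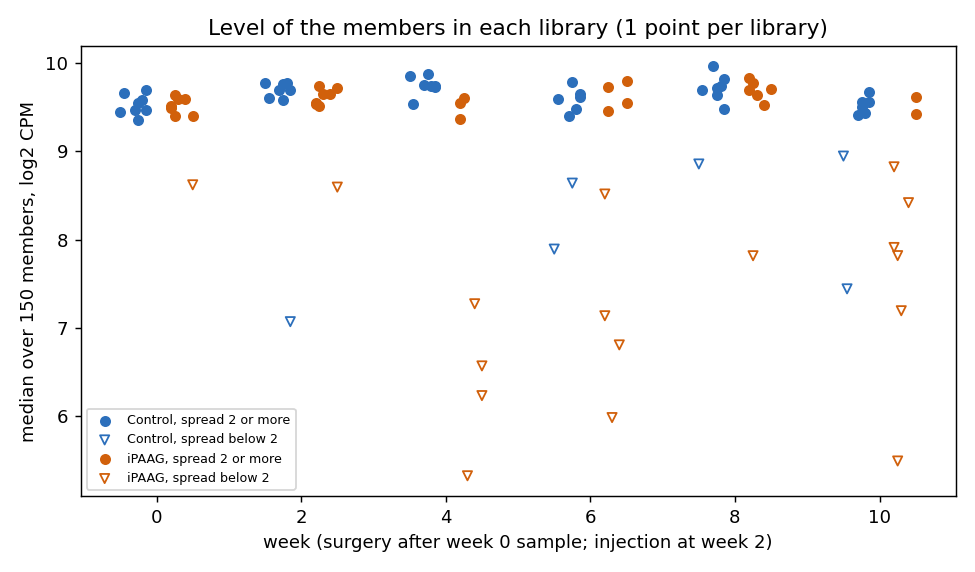
Median log2 CPM of the 150 members in each of 93 libraries (vertical) by week (horizontal), for Control (blue) and iPAAG (orange), with the 23 narrow-spread libraries as open triangles. The filled points lie between 9.36 and 9.96 in every week and arm, and the open triangles between 5.32 and 8.95.

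The fall followed abundance over the whole table. Genes with a week 0 mean below 0 log2 CPM were higher in narrow-spread libraries by a median of 5.22, those from 0 to 2 by 2.38 and those from 2 to 4 by 0.68. Genes from 4 to 6 differed by -0.55, those from 6 to 8 by -1.28 and those from 8 upward by -1.82. A library of narrow spread holds its genes closer together by definition, so lower values of abundant genes are in part how these libraries were told apart. Quantile normalisation, which gives every library the same distribution of values, left the median member at -0.30 in place of -1.96.

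The members' levels still went with their week 0 means in narrow-spread libraries. The Pearson correlation of the 150 members' log2 levels with their week 0 means had a median of 0.91 over the 70 libraries and 0.87 over the 23. It is a description over genes of the same library, and its lowest value was 0.45 in iPAAG horse 7 at week 4. The quartiles of the week 0 means were 9.19 and 9.92 and the highest was 13.25, so a few high members weigh heavily in it. Whether the order of the members was kept was not analysed. Depth moved with spread, at a median of 6316447 reads in the 23 libraries and 24076105 in the 70, and its part in the lower levels was not tested.

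**Figure D5:**
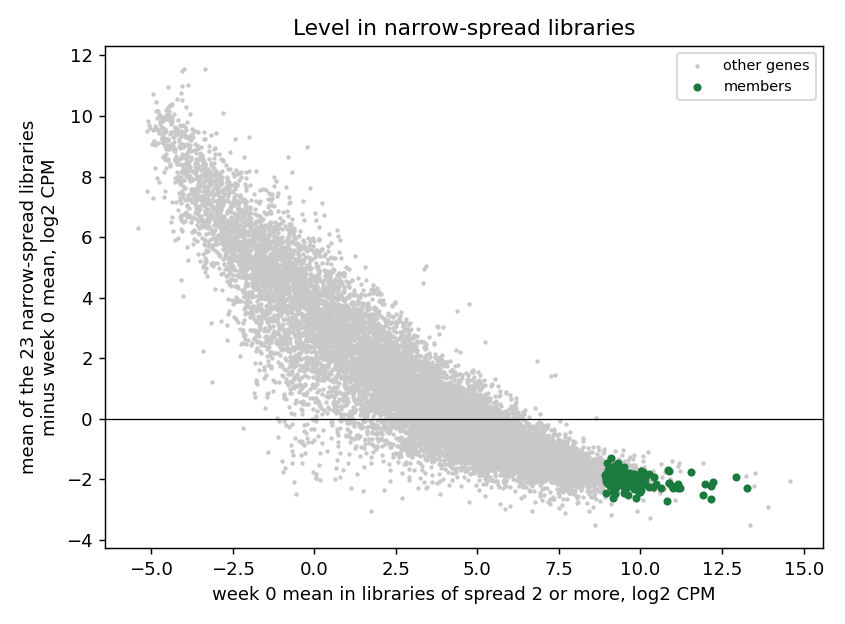
Mean log2 CPM in the 23 narrow-spread libraries minus the week 0 mean of the 70 (vertical) against that week 0 mean (horizontal), with 1 point per gene and members in green. The members lie between -2.72 and -1.30, at the end of a slope that crosses 0 for genes of middle abundance.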

How the data were processed

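The authors deposited 1 table of log2 CPM values from voom for 15838 genes in 93 libraries of synovial fluid cells. The submitters' processing notes name STAR 2.7.10b, EquCab3.0 and limma 3.62.2. Per the labels' protocols, libraries were made from total RNA with a kit that keeps strand and takes little input. The counting of reads, its use of strand, the annotation release and any low-count filter were not given in the sources used here, so genes that overlap or have near-identical copies are uncertain. Each log2 value is a whole number of reads plus 0.5 over a scaled library size: 100.0% of recovered reads were whole within 0.05 reads. The recovered reads gave the depths and read shares, and entered 1 alternative fit, in which limma used voom weights computed from them. A low gene's log2 change understates its fold change because of the added 0.5 reads.

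Arm, horse and week came from the sample labels. No 2 libraries were identical. Python 3.11.15 (pandas 2.3.3) computed the members, levels and shares. limma 3.58.1 in R 4.3.3 fitted 12 arm-by-week means with a mean-variance trend and horse as a random block (correlation 0.094 in the 70 libraries), because each horse was sampled repeatedly. Deviations from the group means correlated by 0.10 on average between libraries of the same horse and by -0.01 between those of different horses. The horse test used horse terms in place of the block. Benjamini-Hochberg adjustment ran over all genes of a test, with a threshold of 0.05. The fits were tested on simulated data. The p-values treat libraries of a group as separate animals, as labelled.

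The members, the tests and the gene lists were chosen with earlier results of these data known. Named genes were the 2 members with the highest week 0 mean and the 2 each with the smallest and largest SD over weeks 2 to 10. Cell type and pathway lists could not be used because 0 identifiers matched a name, so no sequence is printed either. Alternatives were all 93 libraries, other scalings, filters, blocks, weights and covariates, other settings of the rule, and leaving out each horse.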

Additional observations from a re-analysis of the deposited data

Results flagged for a closer look

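In 70 groups of 4 to 8 libraries (the members' median level, their read share and 5 named genes, by arm and week), Dixon's criterion set 3 values apart, and chance sets apart about 1 group in 20. ENSECAG00000055539 stood at 17.54 log2 CPM in Control horse 11 at week 8, against a median of 13.81 over the 7 libraries of that group. It stood at 14.48 in iPAAG horse 17 at week 8, against a median of 13.17 over 6 libraries. The members held 17.4% of the reads of iPAAG horse 7 at week 0, against a median of 14.7% over 7 libraries.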

How the results depend on the processing

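Counts of members in this section stand without those of all genes except where stated, so a change in a count is not read as particular to the members. In the 70 libraries the arm tests called 0 members under the other scalings, weights, blocks, filters and added reads and without each horse. With all 93 libraries and spread as a covariate, 88 members were called for the change from week 2 to weeks 4 to 10. The part of spread in those calls was not tested. Differences among weeks 4 to 10 were called in 19 members with all 93 libraries, in 27 with quantile normalisation of the 93, and in 15 to 49 without 1 horse. Between weeks 4 and 10, 2 members were called with all 93 libraries. The direction turned with spread as a covariate over the 93 (29 called, 27 higher) and with quantile normalisation of the 93 (18 called, 12 higher), and 4 to 41 were called without 1 horse; the cause was not tested. In Control joints the direction turned with quantile normalisation (32 called, 17 higher), and the count was 4 with all 93 libraries, 8 with spread as a covariate, 8 with quantile normalisation of the 93 and 23 to 54 without 1 horse. In iPAAG joints it was 20 with spread as a covariate over the 93, 5 with quantile normalisation of the 93, and 0 to 2 without 1 horse. Horses differed in 0 members with all 93 libraries, 3 after centring each library on its median, 12 after quantile normalisation, 16 after quantile normalisation of the 93, 10 among genes with a mean of at least 1 log2 CPM, and 3 to 11 without 1 horse (3 without horse 1 or 12, 11 without horse 9). Without the replicate block, 38 members differed among weeks 4 to 10 and 31 between weeks 4 and 10 (5 higher, 26 lower); with a fixed replicate block the counts were 40 and 41, and no arm test changed. Voom weights from the recovered reads called 2605 genes and 36 members between weeks 4 and 10. Of the members, 50 were chosen again from all 93 libraries, 118 after centring, 121 after quantile normalisation, 120 under limits of 0.4 and 0.5, 128 under limits of 0.6 and 0.7, 130 from Control and 128 from iPAAG libraries alone, and 141 to 147 without 1 horse. The level in narrow-spread libraries relative to week 0 was -0.30 after quantile normalisation and -2.26 to -1.72 without 1 horse, and the read share was 14.9% to 15.0% in the 70 libraries and 7.35% to 8.51% in the 23. Without horse 5 or 14, iPAAG week 10 has 1 library, which is then assumed to vary like the other groups. The lowest read count of any member in a library was 937 in the 70 libraries and 113 in the 23, so counting error is larger in the latter.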
